A study of Mus musculus with 18 samples.

Results

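The 43 genes described here are S phase and mitosis genes, chosen by gene symbol from the cell division machinery: helicase and clamp genes of DNA replication, enzymes of nucleotide supply, cyclins, mitotic kinases, kinetochore and spindle genes and the chromatin genes Mki67 and Top2a. All 43 were found among the 18922 genes of the deposited tables, and all 43 passed the filter on low counts that left 15329 genes for testing. They were measured by polyA RNA-seq in brain tissue of adult male mice, 8 to 10 weeks old, on a C57Bl6 background. Trem2 knockout (KO) and Trem2 wild-type (WT) mice received 50 mg/kg Rose Bengal intraperitoneally, and a 525 nm laser then produced a photothrombotic cortical stroke, in which the lit dye clots the vessels of a spot 3 mm across. At day 7 after injury the infarct core, the peri-infarct zone around it and the contralateral tissue were cut out of TTC-stained brains. The 6 groups were KO core, WT core, KO peri-infarct, WT peri-infarct, KO contralateral and WT contralateral, with 3 libraries each. Contralateral tissue is the unlesioned side of stroke-bearing mice, so every group shares the injury, the dye and the survival time, and no uninjured mouse was analysed here. The labels name neither the knockout allele nor the animals behind each library, so p-values measure the spread between these libraries.

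A dividing cell copies its DNA in S phase, with the MCM helicase opening the duplex and the PCNA clamp holding the polymerases, and parts its chromosomes in M phase under cyclin B with CDK1, the Aurora and Polo kinases and the spindle checkpoint. S phase genes are typically switched on through E2F factors, and G2 and M phase genes through MYB-MuvB and FOXM1 complexes that bind the CHR element, often beside CCAAT boxes. After cortical stroke the cells known to divide are mainly microglia, incoming myeloid cells, reactive astrocytes, oligodendrocyte precursors, vascular cells and fibroblasts, whereas mature neurons do not divide.

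Promoters of the members are shown first because these elements are typical of S phase and mitotic genes. RefSeq promoters, 300 bases from 250 before to 50 after the transcription start (build GRCm38.p6), were available for 36 of the 43 members. The CHR was searched as TTTGAA or TTCGAA, the CCAAT box as CCAAT, and the E2F motif as TTTCCCGC, TTTGGCGC, TTTCGCGC or TTTGCCGC, on both strands, and overlapping matches were all counted. A CHR match lay in 21 of 36 members (58.3%), against 19.4% of all 27025 promoters. Among the members, 19 of 27 G2 and M phase, cyclin and factor genes held one (70.4%), against 2 of 9 replication and nucleotide genes (22.2%). An E2F match lay in 5 of 36 members (13.9%), against 2.32% of all promoters; these were Mcm3, Mcm5, Mcm6, Mcm7 and Cdk1. CCAAT boxes were found in 26 of 36 members (72.2%), against 37.9% of all promoters, and 19 members (52.8%) held both a CHR and a CCAAT box, against 7.7%. They did not set the classes apart, with 7 of 9 replication and nucleotide genes (77.8%) and 19 of 27 others (70.4%) holding a CCAAT box. A match of letters is a description and shows no binding.

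The 160 bases before the start are given for 5 mitotic members and 2 helicase members, with the matches in capitals. They are Mki67 at chr7:135716380-135716539 (minus strand), Top2a at chr11:99024190-99024349 (minus), Cdk1 at chr10:69352913-69353072 (minus), Ube2c at chr2:164769769-164769928 (plus), Cdc20 at chr4:118437344-118437503 (minus), Mcm5 at chr8:75109349-75109508 (plus) and Mcm6 at chr1:128359706-128359865 (minus).
Mki67: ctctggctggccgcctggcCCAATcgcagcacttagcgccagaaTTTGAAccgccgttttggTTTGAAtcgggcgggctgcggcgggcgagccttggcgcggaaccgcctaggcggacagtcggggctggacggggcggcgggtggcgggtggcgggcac
Top2a: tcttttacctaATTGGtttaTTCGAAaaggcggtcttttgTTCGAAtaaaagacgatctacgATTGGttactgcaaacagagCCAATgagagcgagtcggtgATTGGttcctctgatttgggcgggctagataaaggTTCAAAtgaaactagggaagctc
Cdk1: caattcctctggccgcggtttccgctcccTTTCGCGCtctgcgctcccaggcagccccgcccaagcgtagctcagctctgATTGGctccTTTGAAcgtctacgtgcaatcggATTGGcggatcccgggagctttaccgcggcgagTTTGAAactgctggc
Ube2c: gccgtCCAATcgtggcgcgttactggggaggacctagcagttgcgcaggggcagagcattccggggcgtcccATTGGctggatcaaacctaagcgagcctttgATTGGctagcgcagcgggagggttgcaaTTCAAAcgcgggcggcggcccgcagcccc
Cdc20: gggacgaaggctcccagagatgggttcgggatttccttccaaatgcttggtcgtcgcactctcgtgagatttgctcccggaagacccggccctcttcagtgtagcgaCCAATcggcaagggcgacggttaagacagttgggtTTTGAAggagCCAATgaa
Mcm5: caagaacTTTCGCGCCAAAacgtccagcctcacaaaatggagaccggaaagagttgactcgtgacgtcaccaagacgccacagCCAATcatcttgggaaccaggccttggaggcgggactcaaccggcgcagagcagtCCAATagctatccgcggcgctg
Mcm6: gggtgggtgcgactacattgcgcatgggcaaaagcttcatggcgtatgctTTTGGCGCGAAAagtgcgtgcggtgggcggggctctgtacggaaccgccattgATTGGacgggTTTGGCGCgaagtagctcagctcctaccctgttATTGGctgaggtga
Mki67, Top2a, Ube2c and Cdc20 carry the CHR with CCAAT boxes (ATTGG and TTCAAA are the opposite strand), Cdk1 carries all 3 motifs, and Mcm5 and Mcm6 carry E2F matches and no CHR in these stretches. Other helicase genes differed, as Mcm2 held a CHR and no E2F match and Mcm7 held both.

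Library totals were 16993978 to 17691801 counts in 17 libraries and 18713770 in WT core replicate 3. That library stood apart: its 10 most abundant genes held 15.5% of counts, against 3.27 to 5.38% in the others, and its summed level of neuron markers was 3.66 TPM, against 3014 and 3408 TPM in the other WT core libraries. TPM is the level per transcript length and library size as deposited by the authors. Trem2 ranged from 13.29 to 19.61 TPM in KO core and from 442.6 to 1338 TPM in WT core, with fitted KO over WT log2 fold changes of -6.11 in core, -5.17 in peri-infarct and -5.29 in contralateral tissue (edgeR, adjusted p = 0.0012, 0.0062 and 0.011), so this gene matched the labels in every library. WT core replicate 3 was the highest library of its group for 43 of 43 members, at a median 2.08 times the mean of the other 2 libraries. WT peri-infarct replicate 1 was likewise the highest of its group for 43 of 43, at a median 1.66 times. Many values are also given without WT core replicate 3, and selected ones without WT peri-infarct replicate 1 as well. Markers of choroid plexus and ependyma reached 8787 TPM in KO contralateral replicate 2 and 2084 and 7607 TPM in KO peri-infarct replicates 1 and 3, against 975.5 TPM or less in every other library, and their part in the results was not tested. In such bulk tissue, fewer dividing cells and less RNA per dividing cell cannot be told apart.

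The cell cycle genes were highest in the core, intermediate in the peri-infarct zone and lowest on the contralateral side in both genotypes. Their summed level without Pcna, the most abundant member, was 555.6 to 639.7 TPM in KO core, 238.1 to 303.7 TPM in KO peri-infarct and 105.4 to 119.4 TPM in KO contralateral tissue. The same sums were 621.1, 695.4 and 1383 TPM in WT core, 296.8, 322.5 and 527.5 TPM in WT peri-infarct and 116.8 to 137.2 TPM in WT contralateral tissue. No library of one region reached another region's range within a genotype. Across single genes, 43 of 43 members were higher in every KO core library than in every KO contralateral library, against 27.2% of all genes tested, and 43 of 43 in WT (21.5% of genes). In the peri-infarct zone the groups did not overlap for 41 of 43 members in KO (22.8% of genes), all but Mad2l1 and Ccne2, and for 42 of 43 in WT (16.4% of genes), all but Ccne2.

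**Figure D1:**
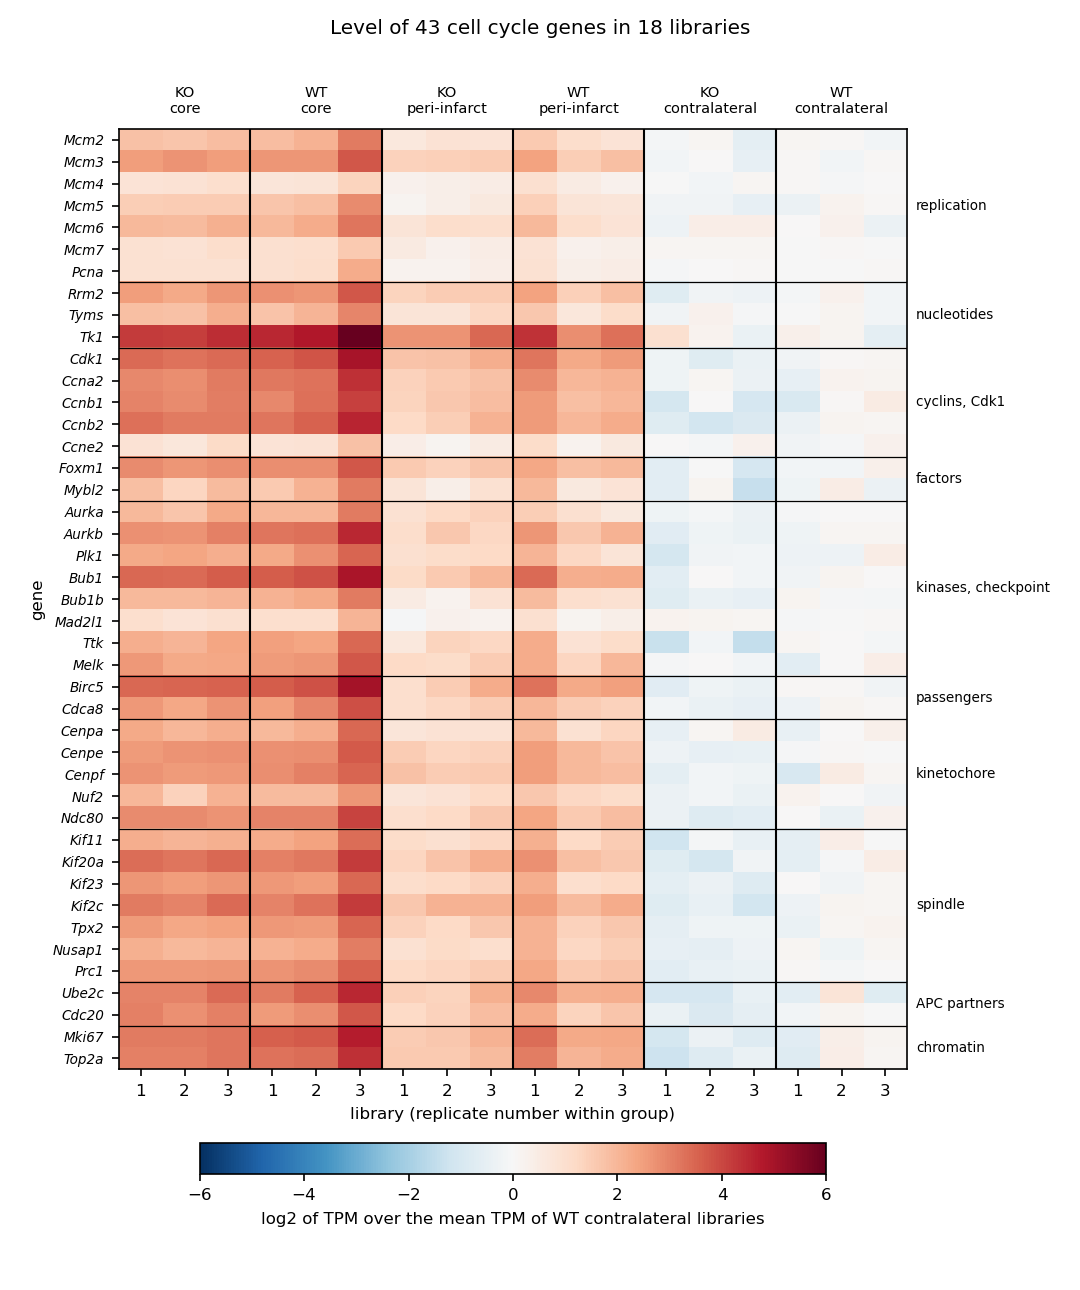
Each row is 1 of the 43 genes, grouped by role, and each column 1 of the 18 libraries; the colour is the log2 of its TPM over the mean TPM of the 3 WT contralateral libraries. Core libraries are the reddest in both genotypes, peri-infarct libraries intermediate, and WT core replicate 3 and WT peri-infarct replicate 1 are the darkest of their groups.

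Tested with edgeR's quasi-likelihood test on the counts (Benjamini-Hochberg adjustment over all genes, threshold 0.05), 40 of 43 members rose in KO core over KO contralateral tissue, where 19.7% of all genes tested rose, with a median log2 fold change of 3.01 (8.06-fold). Mad2l1, Pcna and Ccne2 did not pass in that fit and passed without WT core replicate 3, which made 43 of 43 (29.6% of genes). In WT core 43 of 43 rose over WT contralateral tissue (29.1% of genes), by a median of 3.62, or of 2.81 (7.02-fold) without replicate 3 (43 of 43, with 23.6% of genes). In a fit of only those 2 groups, with replicate 3 included, 0 of 43 passed in WT core. In the peri-infarct zone 21 members rose in KO (4.42% of genes) and 28 in WT (3.27% of genes), with medians of 1.74 and 1.89. Without WT core replicate 3 the SEs of the members were smaller, and 36 members rose in KO peri-infarct (13.7% of genes) and 43 in WT peri-infarct tissue (14.2% of genes). Without WT peri-infarct replicate 1 as well, 40 rose in WT peri-infarct tissue, all but Mybl2, Mad2l1 and Ccne2, with a median of 1.59. The share of all genes in that fit is not given here. Cdk1 then had 2.49 ± 0.20 there, Mki67 2.37 ± 0.23, Birc5 2.26 ± 0.27 and Rrm2 1.70 ± 0.18. With WT core replicate 3 kept, the peri-infarct counts were 0 in KO without any 1 KO contralateral library, 11, 9 and 3 in KO without KO peri-infarct replicate 1, 2 or 3, and 0 in WT without any 1 WT contralateral library or without WT peri-infarct replicate 1 or 3, and limma-voom called 2 in KO and 3 in WT. For these alternative fits the shares of all genes are not given here. No member fell in any of these comparisons under either fit. With all libraries 3.31% of genes fell in KO core, 11.5% in WT core, 0.0522% in KO peri-infarct and 0.00652% in WT peri-infarct tissue. Without WT core replicate 3 these shares were 27.8%, 16.6%, 7.61% and 5.34%. The median over all genes tested lay between -0.03 and 0.04 in them. These are fits of the same libraries, and the KO and WT counts are not a test of a genotype difference.

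**Figure D2:**
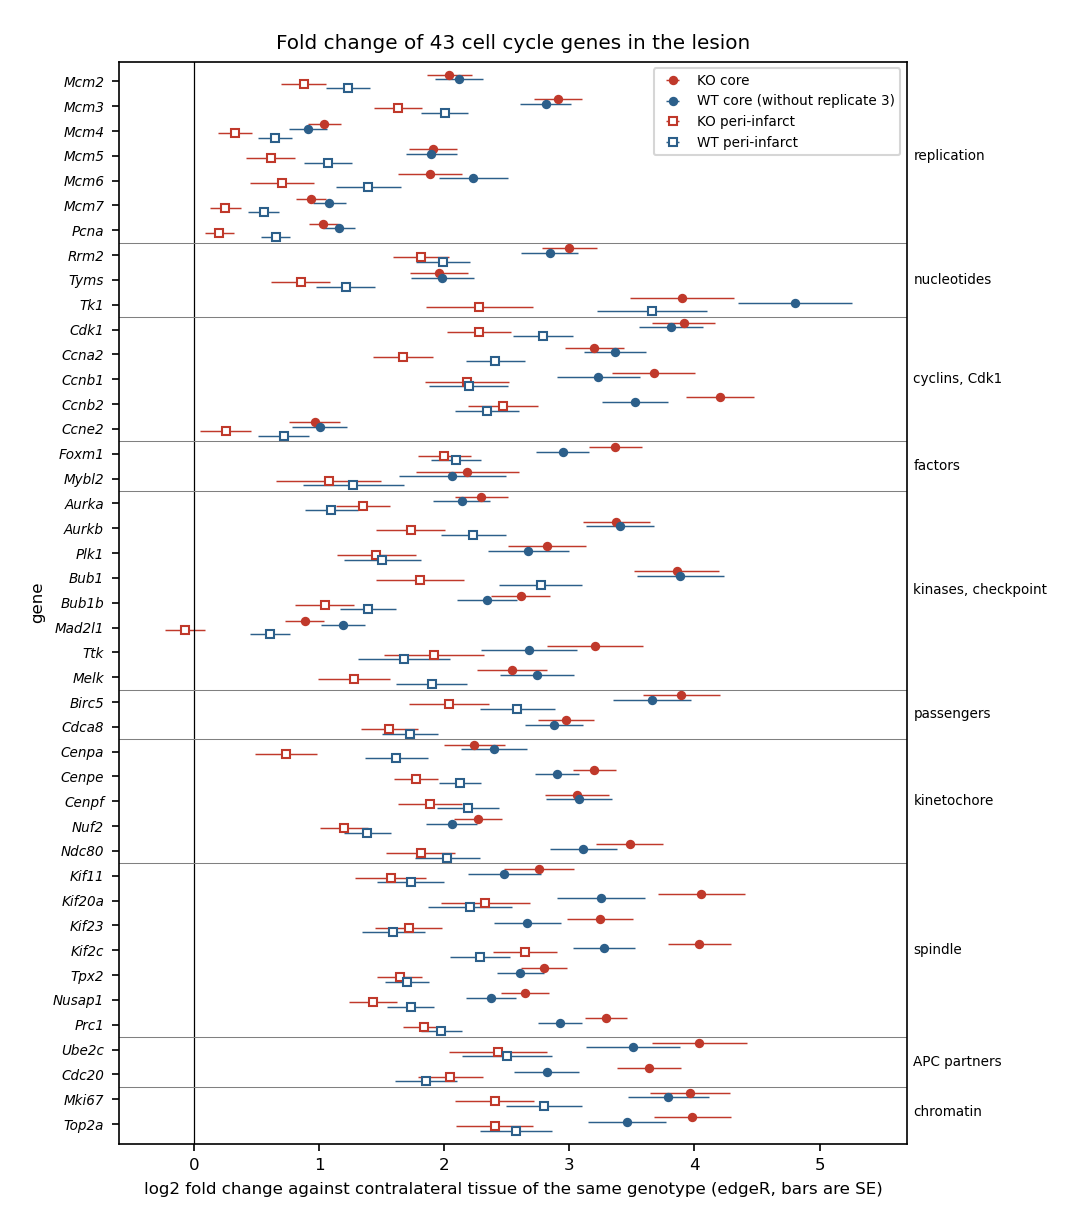
Points are log2 fold changes against contralateral tissue of the same genotype from the fit without WT core replicate 3, with SE, for KO core, WT core, KO peri-infarct and WT peri-infarct. Core folds run from 0.88 (Mad2l1, KO) to 4.80 (Tk1, WT), and Mad2l1, Ccne2, Pcna, Mcm4 and Mcm7 lie nearest 0.

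Replication genes had the smallest rises. Their 7 members had a median log2 fold change of 1.90 in KO core and of 2.76 in WT core over the contralateral side (1.90 in WT without replicate 3). Pcna, the sliding clamp, stood at 214, 214.6 and 213.7 TPM in KO core, at 128.8, 129 and 148.1 TPM in KO peri-infarct and at 107.3, 115.9 and 120.1 TPM in KO contralateral tissue. In WT mice Pcna stood at 219.1, 231.1 and 524.1 TPM in the core, 212.7, 143.6 and 154.2 TPM in the peri-infarct zone and 111.1, 110.3 and 116.5 TPM contralaterally. The contralateral level was thus already at least 107.3 TPM in every library, and the core libraries lay above all others of their genotype. Its log2 fold change in the core was 1.04 ± 0.39 in KO (SE, edgeR, adjusted p = 0.067, and 2.6e-06 without WT core replicate 3) and 2.12 ± 0.40 in WT (0.0011), or 1.16 ± 0.13 without that replicate. Of the helicase subunits Mcm2 to Mcm7, Mcm3 rose most, by 2.92 ± 0.41 in KO core and 3.67 ± 0.43 in WT core (2.81 ± 0.20 without replicate 3). Mcm7 changed least in KO core, by 0.95 ± 0.28 (adjusted p = 0.024), and Mcm4 least in WT core, by 1.47 ± 0.28 (0.0012), or 0.91 ± 0.15 without replicate 3. In KO peri-infarct tissue Mcm3 alone of the 7 passed the test, with 1.70 ± 0.40, and in WT peri-infarct tissue again Mcm3 alone, with 2.04 ± 0.40; without WT core replicate 3, 3 and 7 of the 7 passed.

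The enzymes of deoxynucleotide supply rose further. Rrm2, the regulated subunit of ribonucleotide reductase, had 27.31, 23.06 and 30.69 TPM in KO core, 12.04, 13.74 and 13.96 TPM in KO peri-infarct and 2.88, 4.17 and 3.94 TPM in KO contralateral tissue. It had 32.52, 29.94 and 64.76 TPM in WT core, 25.61, 13.02 and 16.77 TPM in WT peri-infarct and 4.52, 5.74 and 4.27 TPM in WT contralateral tissue. The 3 regions did not overlap within either genotype. Its log2 fold change was 3.01 ± 0.43 in KO core and 1.89 ± 0.42 in KO peri-infarct tissue (adjusted p = 0.00028 and 0.025), and in WT 3.69 ± 0.44 in core and 2.03 ± 0.42 in peri-infarct tissue (0.00011 and 0.025; core 2.84 ± 0.23 without replicate 3). Thymidine kinase, Tk1, had the largest core fold of all members in WT, 5.92 ± 0.71, or 4.80 ± 0.46 without replicate 3, and 3.91 ± 0.66 in KO. Thymidylate synthase, Tyms, rose least of the 3, by 1.97 ± 0.41 in KO core and 2.81 ± 0.42 in WT core (1.98 ± 0.25 without replicate 3).

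Cyclins and their kinase rose strongly, apart from Ccne2, cyclin E2, which acts at the entry to S phase. Ccnb2, a mitotic cyclin, stood at 19.23, 16.9 and 16.96 TPM in KO core, 4.41, 5.3 and 8.06 TPM in KO peri-infarct and 1.16, 0.89 and 1.06 TPM in KO contralateral tissue. In WT it stood at 17.66, 22.32 and 45.25 TPM in core, 11.42, 7.74 and 8.97 TPM in peri-infarct and 1.49, 2.17 and 2.12 TPM in contralateral tissue. Its fold change was the largest of all members in KO core, 4.21 ± 0.52 on the log2 scale (18.5-fold, adjusted p = 0.0002), and was 4.46 ± 0.50 in WT core (3.53 ± 0.27 without replicate 3). Cdk1, the kinase that drives mitotic entry, had 9.06, 8.1 and 9.07 TPM in KO core, 2.74, 2.84 and 3.85 TPM in KO peri-infarct and 0.72, 0.52 and 0.65 TPM in KO contralateral tissue. Its WT values were 9.93, 11.67 and 25.86 TPM in core, 7.93, 4.06 and 5.02 TPM in peri-infarct and 0.73, 0.89 and 0.93 TPM in contralateral tissue. Both genes were thus at or below 2.17 TPM in every contralateral library. Cdk1 rose by 3.92 ± 0.51 in KO core and by 2.35 ± 0.50 in KO peri-infarct tissue (adjusted p = 0.00022 and 0.02), and in WT by 4.79 ± 0.51 and 2.83 ± 0.49 (0.00011 and 0.022; core 3.81 ± 0.25 without replicate 3). Ccna2 and Ccnb1 rose in all 4 of these comparisons. With all libraries Ccne2 rose in WT core by 1.76 ± 0.37 (adjusted p = 0.0025) and did not pass in KO core with 0.97 ± 0.37 (0.073), and it passed in both cores without WT core replicate 3, with 0.96 ± 0.20 in KO and 1.01 ± 0.22 in WT.

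Among the transcription factors of the G2 and M programme, Foxm1 had 7.15, 6.27 and 7.05 TPM in KO core, 3, 2.62 and 3.25 TPM in KO peri-infarct and 0.65, 1 and 0.5 TPM in KO contralateral tissue. In WT it had 7.07, 7.01 and 13.47 TPM in core, 4.98, 3.52 and 3.96 TPM in peri-infarct and 0.91, 0.89 and 1.24 TPM in contralateral tissue. KO and WT core libraries overlapped, and replicate 3 was the high one in WT. Foxm1 rose by 3.38 ± 0.42 in KO core and 3.72 ± 0.42 in WT core (adjusted p = 0.0002 and 0.00011; 2.95 ± 0.21 in WT without replicate 3). Mybl2, the MYB partner of MuvB, rose less and with more spread, by 2.20 ± 0.58 in KO core (0.013) and 3.01 ± 0.58 in WT core (0.0012). The WT core value was 2.07 ± 0.43 without replicate 3. With all libraries its peri-infarct values of 1.15 ± 0.58 in KO and 1.31 ± 0.57 in WT did not pass. Without WT core replicate 3 Mybl2 passed in WT peri-infarct tissue, as every member did. With WT peri-infarct replicate 1 left out as well it did not (0.82 ± 0.40, edgeR adjusted p = 0.2).

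Mitotic kinases and spindle checkpoint genes numbered 8. In KO core 7 of 8 rose, with a median of 2.73, and in WT core all 8 rose, with a median of 3.49, or 2.68 without replicate 3. Aurkb, the kinase of the chromosomal passenger complex, had 6.94, 6.85 and 8.51 TPM in KO core, 2.2, 3.24 and 2.49 TPM in KO peri-infarct and 0.65, 0.88 and 0.79 TPM in KO contralateral tissue. It had 9.84, 10.36 and 24.03 TPM in WT core, 6.64, 3.28 and 4.42 TPM in WT peri-infarct and 0.89, 1.14 and 1.13 TPM in WT contralateral tissue. Every KO library of a region lay below every WT library of that region. Bub1b, the checkpoint kinase-like protein BubR1, had 9.47, 9.51 and 10.12 TPM in KO core, 3.47, 2.9 and 4.59 TPM in KO peri-infarct and 1.5, 1.89 and 1.77 TPM in KO contralateral tissue. Its WT values were 10.47, 12.16 and 21.47 TPM in core, 9.1, 4.91 and 4.74 TPM in peri-infarct and 2.78, 2.37 and 2.28 TPM in contralateral tissue, again above KO in every library of each region. Over contralateral tissue Aurkb rose by 3.38 ± 0.51 in KO core and by 4.385 ± 0.51 in WT core (3.41 ± 0.27 without replicate 3), and Bub1b by 2.62 ± 0.41 and 3.11 ± 0.41 (2.34 ± 0.24 without replicate 3). The largest rise of the class was that of Bub1, the checkpoint kinase, by 3.87 ± 0.54 in KO core and 4.79 ± 0.55 in WT core (3.89 ± 0.35 without replicate 3).

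Mad2l1, which encodes the checkpoint protein MAD2, was the member least changed in KO lesions. It had 23.62, 21.13 and 23.33 TPM in KO core, 11.32, 14.31 and 13.62 TPM in KO peri-infarct and 13.6, 13.48 and 12.91 TPM in KO contralateral tissue. In WT it had 23.97, 24.23 and 48.31 TPM in core, 22.73, 13.13 and 15.26 TPM in peri-infarct and 11.46, 11.81 and 12.32 TPM in contralateral tissue. The KO peri-infarct and contralateral libraries overlapped, and the WT ones did not. Its fold change in KO peri-infarct tissue was 0.00 ± 0.36 (adjusted p = 1.0) and in KO core 0.89 ± 0.36 (0.092; 0.88 ± 0.16 and 0.00021 without WT core replicate 3), while WT core gave 2.00 ± 0.37 (0.00099; 1.19 ± 0.17 without replicate 3).

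The chromosomal passenger subunits Birc5 (survivin) and Cdca8 (borealin) both rose in core and, in WT, in peri-infarct tissue. Birc5 had 29.27, 29.62 and 31.19 TPM in KO core, 5.28, 7.52 and 12.25 TPM in KO peri-infarct and 1.66, 2.23 and 2.03 TPM in KO contralateral tissue. It had 33.4, 37.3 and 85.15 TPM in WT core, 25.33, 12.69 and 14.48 TPM in WT peri-infarct and 2.82, 2.83 and 2.32 TPM in WT contralateral tissue. KO lay below WT in every library of each region for this gene too. Birc5 rose by 3.90 ± 0.55 in KO core and 2.11 ± 0.54 in KO peri-infarct tissue (adjusted p = 0.00025 and 0.041), and by 4.65 ± 0.55 and 2.62 ± 0.52 in WT (0.00011 and 0.024; core 3.66 ± 0.31 without replicate 3). Cdca8 had 1.63 ± 0.45 in KO peri-infarct tissue (adjusted p = 0.057), and passed there without WT core replicate 3 (1.56 ± 0.23, 0.0002).

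At the centromere and kinetochore, Cenpa, the centromeric histone variant, had 23.4, 19.19 and 22.09 TPM in KO core, 8.1, 8.82 and 8.8 TPM in KO peri-infarct and 3.44, 5.3 and 6.82 TPM in KO contralateral tissue. Its WT values were 18.69, 21.94 and 52.63 TPM in core, 18.62, 9.15 and 11.85 TPM in peri-infarct and 3.59, 4.95 and 6.14 TPM in contralateral tissue. KO and WT overlapped in core and contralateral tissue and did not in the peri-infarct zone. Cenpe, a kinetochore motor, had 3.79, 4.23 and 4.43 TPM in KO core, 1.86, 1.61 and 1.73 TPM in KO peri-infarct and 0.53, 0.46 and 0.48 TPM in KO contralateral tissue. In WT it had 4.35, 4.48 and 8.5 TPM in core, 3.66, 2.49 and 2.11 TPM in peri-infarct and 0.62, 0.69 and 0.65 TPM in contralateral tissue. Cenpe rose by 3.21 ± 0.39 in KO core and 3.68 ± 0.39 in WT core (2.90 ± 0.18 without replicate 3). Ndc80, a microtubule-binding subunit, rose most of the class, by 3.49 ± 0.48 in KO core and 3.99 ± 0.47 in WT core (3.11 ± 0.27 without replicate 3), and Cenpf and Nuf2 also rose in both cores.

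All 7 spindle motors and microtubule proteins rose in both cores and in WT peri-infarct tissue, and 6 of 7 rose in KO peri-infarct tissue. Prc1, which bundles microtubules of the central spindle, had 18.95, 19.41 and 19.88 TPM in KO core, 7.29, 7.8 and 8.93 TPM in KO peri-infarct and 2.04, 2.29 and 2.38 TPM in KO contralateral tissue. It had 20.35, 22.2 and 37.21 TPM in WT core, 15.59, 9.5 and 10.19 TPM in WT peri-infarct and 3.32, 2.91 and 3.24 TPM in WT contralateral tissue, above KO in every library of each region. Prc1 rose by 3.30 ± 0.365 in KO core and 1.91 ± 0.35 in KO peri-infarct tissue (adjusted p = 0.00013 and 0.015), and by 3.63 ± 0.365 and 2.01 ± 0.35 in WT (0.00011 and 0.022; core 2.925 ± 0.17 without replicate 3). The mitotic kinesin Kif20a had the largest core rise of the class in KO, 4.06 ± 0.55, with 4.13 ± 0.53 in WT (3.25 ± 0.35 without replicate 3), and Kif2c, a microtubule-depolymerising kinesin, rose most in KO peri-infarct tissue of all members, by 2.72 ± 0.47 (adjusted p = 0.012).

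The partners of the anaphase-promoting complex, which ends mitosis by tagging cyclin B and securin for destruction, rose in all 4 comparisons. Ube2c, its E2 ubiquitin-conjugating enzyme, had 29.89, 30.62 and 40.73 TPM in KO core, 10.43, 9.69 and 16.83 TPM in KO peri-infarct and 1.89, 1.93 and 2.83 TPM in KO contralateral tissue. Its WT values were 33.16, 45.28 and 88.83 TPM in core, 28.48, 16.79 and 17.34 TPM in peri-infarct and 2.52, 6.66 and 2.36 TPM in contralateral tissue. Replicate 2 was the high one of the WT contralateral libraries. Ube2c rose by 4.05 ± 0.59 in KO core and 4.46 ± 0.58 in WT core (3.51 ± 0.38 without replicate 3), and its activator partner Cdc20 by 3.65 ± 0.46 and 3.67 ± 0.45 (2.82 ± 0.26 without replicate 3).

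Mki67, the coat protein of mitotic chromosomes used as the Ki-67 proliferation marker, had 15.36, 15.27 and 16.66 TPM in KO core, 5.05, 5.47 and 7.47 TPM in KO peri-infarct and 0.87, 1.39 and 1.04 TPM in KO contralateral tissue. It had 21.47, 22.89 and 46.76 TPM in WT core, 18.2, 8.58 and 9.04 TPM in WT peri-infarct and 1.11, 2.25 and 1.99 TPM in WT contralateral tissue. KO lay below WT in every core and every peri-infarct library, and the contralateral libraries overlapped. Top2a, the topoisomerase that untangles sister chromatids, had 27.08, 27.52 and 31.19 TPM in KO core, 9.75, 10.07 and 12.32 TPM in KO peri-infarct and 1.42, 1.95 and 2.5 TPM in KO contralateral tissue. In WT it had 31.75, 34.2 and 68.69 TPM in core, 27.81, 13.72 and 15.63 TPM in peri-infarct and 1.94, 4.42 and 3.65 TPM in contralateral tissue, with the same pattern of overlap as Mki67. Over contralateral tissue Mki67 rose by 3.97 ± 0.50 in KO core and 2.48 ± 0.47 in KO peri-infarct tissue (adjusted p = 0.0002 and 0.015), and by 4.65 ± 0.51 and 2.83 ± 0.47 in WT (0.00011 and 0.022; core 3.79 ± 0.32 without replicate 3). Top2a rose by 3.99 ± 0.50 and 2.48 ± 0.47 in KO and by 4.31 ± 0.50 and 2.61 ± 0.47 in WT core and peri-infarct tissue (core 3.46 ± 0.31 without replicate 3).

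**Figure D3:**
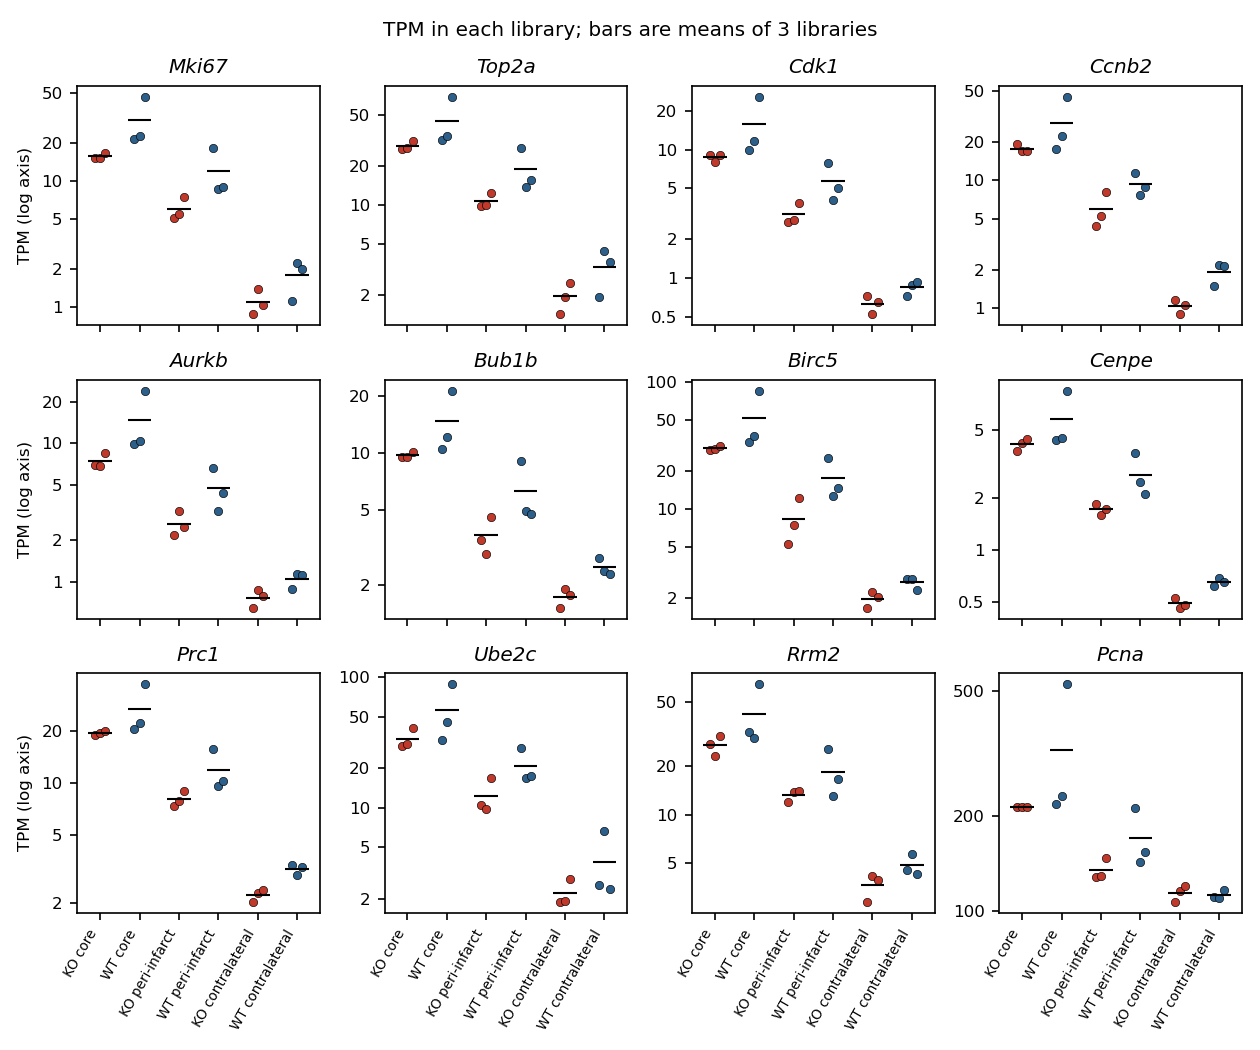
TPM on a log axis in each library of the 6 groups for Mki67, Top2a, Cdk1, Ccnb2, Aurkb, Bub1b, Birc5, Cenpe, Prc1, Ube2c, Rrm2 and Pcna, KO in red left of WT in blue, with bars at the means of 3 libraries. Each of the 12 means steps down from core to peri-infarct to contralateral tissue in both genotypes, and the top WT core point is replicate 3 in every panel.

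Between the lesion zones, 43 of 43 members were higher in every KO core library than in every KO peri-infarct library (20.2% of genes), and 38 of 43 in WT (13.8% of genes). The exceptions in WT were Mybl2, Mcm6, Nusap1, Ccne2 and Mcm4. Peri-infarct means were a median 43.3% of core means in KO, from 26.8% for Bub1 to 69.5% for Mcm7. In WT, without core replicate 3, they were a median 55.4%, from 46.9% for Ccnb2 to 89.2% for Mcm4. When WT peri-infarct replicate 1 was also left out, the WT median was 46.0%, from 33.1% for Tk1 to 76.5% for Mcm4. By the test, 40 of 43 rose in WT core over WT peri-infarct tissue (12.3% of genes), with a median log2 fold change of 1.70, and 25 (4.88% of genes) with a median of 0.91 without replicate 3. With WT peri-infarct replicate 1 left out as well, 41 passed, with a median of 1.23, and the share of all genes in that fit is not given here. With a replicate block or by limma-voom on all libraries 0 passed, and leaving out WT peri-infarct replicate 1, 2 or 3 alone gave 3, 0 and 0. In KO core over KO peri-infarct tissue 0 of 43 passed in the all-library fit (0.0% of genes), with a median of 1.31. At an unadjusted edgeR p under 0.05 the count was 40 of 43, and the share of all genes at that p is not given here. DESeq2 with all libraries called 21, again without a share of all genes given here. By edgeR without WT core replicate 3, 43 of 43 passed (24.3% of genes, median 1.37). None fell (0.678% of genes fell in WT core with all libraries and 15.8% in KO core without that replicate). That WT library enters the KO comparison through the common estimate of the spread.

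The members most abundant outside the lesion had some of the smallest folds. Mean WT contralateral levels exceeded 5 TPM for 5 members, Pcna, Mcm7, Mad2l1, Mcm4 and Mcm6, and their log2 fold changes in KO core ran from 0.89 to 1.90, below the median of 3.01. Across the 43 genes the log2 WT contralateral TPM and the KO core fold change, taken from libraries of different mice, correlated at -0.66 by Pearson's r and -0.56 by Spearman's rho. With the genotypes exchanged (KO contralateral level, WT core fold change without replicate 3) they were -0.66 and -0.60. These are descriptions across genes, which are not independent replicates, and genes of each axis share their libraries.

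**Figure D4:**
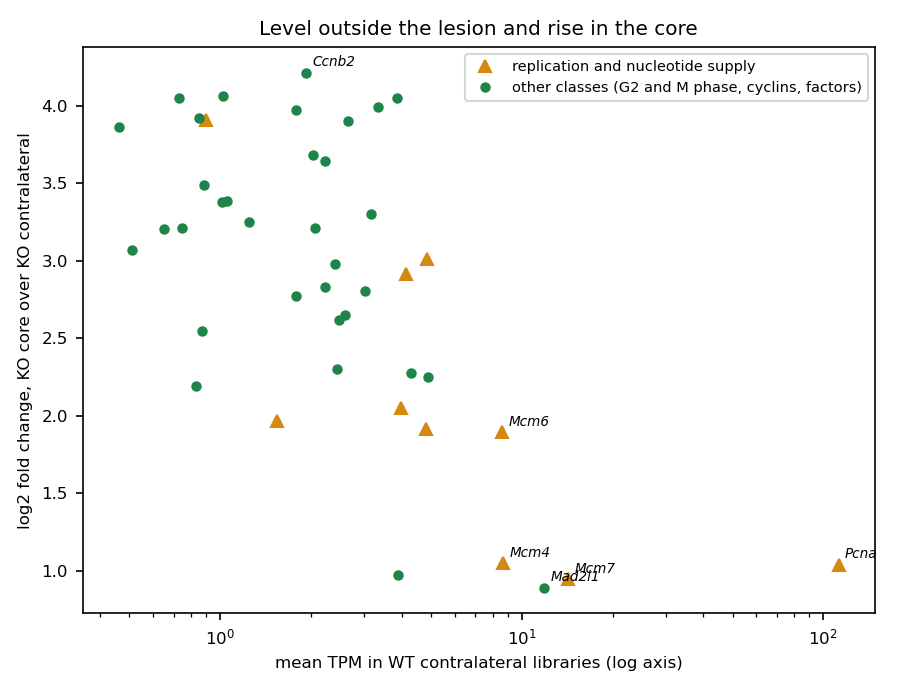
The x axis is the mean TPM of the 3 WT contralateral libraries (log axis) and the y axis the log2 fold change of KO core over KO contralateral tissue, 1 point per gene, triangles for replication and nucleotide genes. The 5 genes above 5 TPM lie at folds of 0.89 to 1.90, and Ccnb2 is the highest point at 4.21.

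The KO mean was below the WT mean for 43 of 43 members in core (24.9% of genes), 42 of 43 in the peri-infarct zone (40.8% of genes) and 35 of 43 in contralateral tissue (59.4% of genes). Without WT core replicate 3 it was lower for 35 of 43 in core (48.9% of genes). No member passed the test in a single region. KO lay below WT in every library for 18 of 43 members in core (2.07% of genes), 15 of 43 in the peri-infarct zone (5.53% of genes) and 14 of 43 in contralateral tissue (12.9% of genes). Without WT core replicate 3, the highest WT core library for every member, the core count is 18 by construction, and 17.1% of genes met the condition. KO lay above WT in every library for no member in core with all libraries (10.7% of genes), for Mad2l1 and Mcm7 in contralateral tissue (5.0% of genes), for Kif20a and Mcm4 in core once replicate 3 was left out (18.1% of genes), and for none in the peri-infarct zone (11.1% of genes). Aurkb, Birc5, Bub1b, Cdk1 and Prc1 were lower in KO in every library of all 3 regions, 5 of 43 members against 0.281% of genes. That share of genes was computed with WT core replicate 3 kept. For core alone the share rose from 2.07% to 17.1% without that library, while the member count cannot change. The share for all 3 regions without it was not computed.

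By edgeR, 0 of 43 members passed between KO and WT in core, peri-infarct or contralateral tissue, where 0.00652% of all genes fell in each, and 0 passed in any of the 3 without WT core replicate 3 (2.06%, 0.0778% and 0.0259% of genes). With all libraries the counts at an unadjusted p under 0.05 were 35 in core (11.9% of genes), 2 in peri-infarct (3.23%) and 0 in contralateral tissue (2.96%). Without that replicate they were 0 in core (19.7%), 30 in peri-infarct (13.6%) and 4 in contralateral tissue (10.2%), and the peri-infarct count was 14 (11.3%) without WT peri-infarct replicate 1 as well. DESeq2 also gave 0 in each of the 3 regions. The median log2 fold change of KO over WT was -1.01 in core, -0.53 in peri-infarct and -0.38 in contralateral tissue, and -0.15, -0.545 and -0.35 without WT core replicate 3. When WT peri-infarct replicate 1 was left out as well, the peri-infarct median was -0.33. The core median was thus much nearer 0 without that 1 library. Over all genes tested the medians were between -0.02 and 0.02 in these fits. In the core, Mki67 had -1.35 ± 0.44 (adjusted p = 0.4) and -0.48 ± 0.29 (0.38) without replicate 3. In the peri-infarct zone the lowest value was that of Bub1, -1.14 ± 0.47 (adjusted p = 1.0; -1.15 ± 0.29 and 0.14 without replicate 3), and Cenpe came nearest the threshold, with -0.72 ± 0.15 (0.076 without replicate 3). Without WT peri-infarct replicate 1 as well, Bub1 had -0.64 ± 0.22 (0.35) and Cenpe -0.48 ± 0.11 (0.21).

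**Figure D5:**
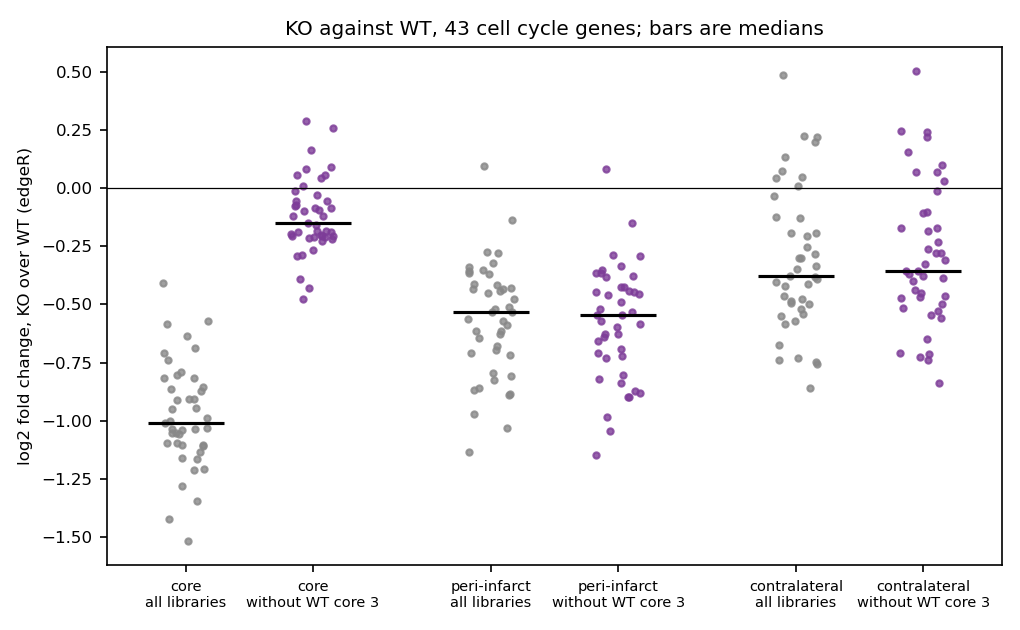
Each point is the log2 fold change of KO over WT for 1 of the 43 genes in core, peri-infarct and contralateral tissue, with all libraries (grey) and without WT core replicate 3 (purple), and bars are medians. The core median moves from -1.01 to -0.15 without that library, while the peri-infarct and contralateral medians stay near -0.5 and -0.4.

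Averaged over the 3 regions, KO against WT gave 0 of 43 members past the threshold with all libraries by edgeR (0.137% of genes fell and 0.0913% rose), 30 at an unadjusted p under 0.05 (1997 of 15329 genes), and a median log2 fold change of -0.62. DESeq2 called Mki67 and Top2a lower in KO. With 1 library left out at a time, the number of members called by edgeR ran from 0 to 8, depending on the library. Without WT core replicate 3, 8 members were lower in KO and none higher (5.2% of genes fell and 2.26% rose), with a median of -0.34. They were Mki67 (-0.72 ± 0.17, adjusted p = 0.024), Prc1 (-0.385 ± 0.095, 0.025), Cenpe (-0.39 ± 0.10, 0.027), Aurkb (-0.58 ± 0.15, 0.032), Ccnb2 (-0.57 ± 0.15, 0.033), Cdk1 (-0.525 ± 0.140, 0.034), Bub1b (-0.50 ± 0.13, 0.035) and Top2a (-0.595 ± 0.168, 0.047). The share of members called, 8 of 43, stands beside 5.2% of all genes in that fit. It took the libraries of the 3 regions as independent, and the labels do not say whether regions came from the same mice. Same-numbered WT peri-infarct and contralateral libraries deviated together. If regions shared mice, the p-values of this average could be too small. Leaving out WT peri-infarct replicate 1 as well, a choice made after the values were seen, called the same 8 genes. The share of all genes past the threshold in that fit is not given here. An unadjusted edgeR p under 0.05 was met by 27 of 43 members (26.0% of genes) without WT core replicate 3. Without both libraries 20 of 43 met it (27.3% of genes). Just outside the threshold without WT core replicate 3 alone were Mcm5 (adjusted p = 0.052) and Nusap1 (0.053). None of the 8 is a replication or nucleotide gene. However, limma-voom with sample weights called 9 members, the same 8 and the replication gene Mcm5. Its weight was 0.01565 for WT core replicate 3 and at least 0.6371 for every other library. The weighted fit thus came close to leaving that library out and is no separate support. Its share of all genes called is not given here. Class medians without WT core replicate 3 alone were -0.12 for replication and -0.25 for nucleotide genes, between -0.33 and -0.42 for the other 7 classes of G2, M phase, cyclin and factor genes, and -0.66 for Mki67 and Top2a. Without WT peri-infarct replicate 1 as well they were -0.06 and -0.07, between -0.25 and -0.335, and -0.53, and the difference between classes was not tested.

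The response of KO and WT to the lesion was compared by interaction. With all libraries 0 of 43 members differed in the core response (edgeR; 0.0% of genes, 1 member at an unadjusted p under 0.05) and 0 of 43 in the peri-infarct response (0.0% of genes, 0 members at an unadjusted p under 0.05). DESeq2 gave 0 in each as well. The median KO minus WT difference in core response was -0.67 on the log2 scale with all libraries and 0.16 without WT core replicate 3, so its sign rests on that library. The median difference in peri-infarct response was -0.27 with all libraries and -0.305 without WT core replicate 3, and -0.03 when WT peri-infarct replicate 1 was also left out.

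Summed phagocyte markers were lower in every KO library than in every WT library of the same region. Homeostatic microglia markers were so outside the core, while in the core KO and WT libraries overlapped. Neuron markers were so in the peri-infarct zone, at 3608 to 4041 TPM in KO and 4108 to 4388 TPM in WT. In the core they summed to 2258 to 2301 TPM in KO and to 3408, 3014 and 3.66 TPM in WT, and the contralateral libraries overlapped. No remaining list was lower in every KO library of a region. The 8 homeostatic microglia markers summed to 1881 to 2694 TPM in KO core and to 2528, 2680 and 5126 TPM in WT core. They summed to 1192 to 1372 TPM in KO peri-infarct and 1586 to 1986 TPM in WT peri-infarct tissue, and to 456.7 to 527.9 TPM in KO and 550 to 623.6 TPM in WT contralateral tissue. The groups did not overlap in the peri-infarct and contralateral regions. The 8 phagocyte markers showed a wider gap, 572.7 to 774.3 TPM in KO peri-infarct against 1176, 1267 and 2782 TPM in WT peri-infarct tissue. In the core they summed to 1797 to 2641 TPM in KO and to 2729, 3606 and 11270 TPM in WT, and on the contralateral side to 31.45 to 81.04 TPM in KO and 90.29 to 207.9 TPM in WT. The libraries highest for the members, WT core replicate 3 and WT peri-infarct replicate 1, were also the highest of their groups for phagocyte markers. The same held for the markers of homeostatic microglia, fibroblasts, neutrophils, and choroid plexus and ependyma. The 6 fibroblast markers summed to 765.1 to 1474 TPM in KO core and 653.2 to 1262 TPM in WT core, and were 318.1 TPM in WT peri-infarct replicate 1 against 46.49 and 54.46 TPM in its other 2 libraries. Oligodendrocyte precursor markers, 224.3 to 242 TPM in KO core and 127 to 275.7 TPM in WT core, had 206 to 229.3 TPM in KO and 222 to 242.8 TPM in WT contralateral tissue. The 6 neutrophil markers summed to 263.9, 601.3 and 314.6 TPM in KO core and to 67.83, 106 and 390.4 TPM in WT core. Astrocyte markers were higher in every KO core library, 3149 to 4331 TPM against at most 2892 TPM in WT core, and endothelial markers in every KO peri-infarct library, 108.2 to 123.7 TPM against 72.22 to 100.6 TPM in WT peri-infarct tissue. T cell markers summed to 8.57 TPM or less in every library and B cell markers to 1.7 TPM or less. None of the 8 microglia, 8 phagocyte, 6 fibroblast, 6 astrocyte or 6 endothelial markers was at 0 in any group, and Ly6g of the neutrophil list was at 0 in every group but KO core. The part of these cell types in the members' levels was not tested.

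Of 86 other cell cycle genes in 8 lists, 60 rose and 2 fell in KO core over contralateral tissue (19.7% and 3.31% of all genes). In WT core 71 rose and 2 fell (29.1% and 11.5% of genes). Without WT core replicate 3 the counts were 71 and 3 in KO (29.6% and 27.8% of genes) and 70 and 1 in WT (23.6% and 16.6% of genes). Their medians were 1.88 in KO and 2.57 in WT (1.87 and 1.74 without replicate 3), below the members' medians. In peri-infarct tissue 20 rose in KO (4.42% of genes) and 24 in WT (3.27% of genes). Without replicate 3, 49 rose in KO (13.7% of genes) and 54 in WT (14.2% of genes). In that fit 4 fell in KO (7.61% of genes), Cdkn2d, Dut, Orc6 and Wee1. Kinetochore and spindle genes outside the member list had the highest core medians of the 8 lists, with 18 of 19 up in KO core and 19 of 19 in WT core at medians of 2.93 and 3.395 (2.61 in WT without replicate 3), and 9 of 10 condensin and cohesion genes rose in each core. Origin and fork genes rose for 13 of 20 in KO core and 18 of 20 in WT core at medians of 1.66 and 2.34 (17 of 20 and 1.52 in WT without replicate 3). Orc6, an origin recognition subunit, had -0.05 ± 0.10 in KO core and 0.14 ± 0.10 in WT core, and Rrm1, the large ribonucleotide reductase subunit, rose by 1.23 ± 0.29 and 1.80 ± 0.30 (1.16 ± 0.125 in WT without replicate 3). Pbk, a mitotic kinase, rose by 3.37 ± 0.44 in KO core and 4.23 ± 0.45 in WT core (3.45 ± 0.25 without replicate 3), and Tacc3, a spindle protein, by 1.91 ± 0.39 and 2.66 ± 0.39 (1.80 ± 0.17 without replicate 3).

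The G1 regulators ranged widely. Cyclin D1, Ccnd1, rose by 1.35 ± 0.22 in KO core and 1.825 ± 0.22 in WT core (adjusted p = 0.00056 and 0.00011; 1.41 ± 0.11 in WT without replicate 3), and its kinase Cdk4 by 1.15 ± 0.305 and 1.765 ± 0.31 (0.014 and 0.00068; 1.07 ± 0.12 in WT without replicate 3). Cdk2 rose by 2.295 ± 0.43 in KO core and 3.31 ± 0.45 in WT core (2.36 ± 0.20 without replicate 3) and Cdk6 by 2.24 ± 0.48 and 2.715 ± 0.48 (1.72 ± 0.28). Ccnd3 rose in WT core and, without WT core replicate 3, also in KO core, and Ccnd2 and Ccne1 passed in neither core. Of the 7 Cdk inhibitors, Cdkn1a (p21), Cdkn2a (p16 and Arf), Cdkn2b and Cdkn2c rose in both cores; Cdkn1a rose by 1.30 ± 0.44 in KO core and 1.82 ± 0.44 in WT core (adjusted p = 0.047 and 0.0057; 0.81 ± 0.23 in WT without replicate 3). Cdkn2a rose by 4.99 ± 1.16 in KO core and 4.805 ± 0.91 in WT core (3.41 ± 0.69 without replicate 3), Cdkn2b by 2.005 ± 0.61 and 2.84 ± 0.61 (1.79 ± 0.47) and Cdkn2c by 2.17 ± 0.325 and 2.61 ± 0.33 (1.995 ± 0.18). The Cdkn2a folds rest on contralateral levels near the floor, with means of 0.073 TPM in KO and 0.26 TPM in WT. Its core means were 2.51 and 5.16 TPM. Cdkn1c rose in WT core with all libraries, and in both without replicate 3. Cdkn2d fell in KO core by 0.34 ± 0.09 (0.017) and had -0.22 ± 0.09 in WT core (0.072), and Cdkn1b passed in neither. Of the remaining abundant genes, Wee1, which restrains Cdk1, fell in KO core by 0.315 ± 0.09 (0.019) and had -0.06 ± 0.09 in WT core. Rbl2 and E2f6, a pocket protein and an E2F repressor, had 0.14 ± 0.07 and -0.115 ± 0.10 in KO core and passed in neither core. Pttg1, securin, fell in WT core by 0.26 ± 0.10 (0.044) and Cit, citron kinase of cytokinesis, by 1.07 ± 0.37 (0.033); without replicate 3 Pttg1 did not pass (-0.22 ± 0.10, 0.096) and Cit fell by 0.67 ± 0.22 (0.027), whereas Anln, anillin, did not pass. The condensin subunit Ncapd2 rose by 0.93 ± 0.25 in KO core and 1.40 ± 0.255 in WT core (0.87 ± 0.11 without replicate 3), and Incenp, the passenger scaffold, rose in WT core by 1.49 ± 0.30 (0.0019; 0.835 ± 0.14 without replicate 3) and had 0.81 ± 0.30 in KO core (0.069). Between KO and WT averaged over regions none of the 86 passed with all libraries. Without WT core replicate 3, 6 were lower in KO (Cdkn1a, Mcm10, Ncapg, Ncaph, Kif4 and Wee1), led in size by Mcm10 with -0.68 ± 0.19 (adjusted p = 0.039), and 1, Rbl2, was higher by 0.12 ± 0.03 (0.034). In that fit 5.2% of all genes were lower in KO and 2.26% higher, so 6 of 86 lay near the share of all genes.

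Coding genes that overlap a member could share its reads, since no source used here states whether counting used strand. This concerns 10 members, Nusap1, Aurka, Ccna2, Ccne2, Cdc20, Mcm7, Foxm1, Prc1, Tk1 and Kif20a. Pseudogene copies are annotated for Ccnb1, Ccnb2, Tyms and Pcna, and counts of 9 members were not whole numbers, so their values are less certain.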

How the data were processed

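Per the submitters' processing notes, reads were processed with HISAT2 2.0.4, Bowtie2 and Subread on GRCm39 (mm39). The authors deposited expected counts per gene, 19.4% of genes with values that are not whole, and TPM, both for 18 libraries. Totals were 16993978 to 18713770 counts. Levels are TPM as deposited; fold changes came from the counts, rounded to whole numbers. R 4.3.3 with edgeR 4.0.16 (filterByExpr, TMM factors, robust quasi-likelihood fit of 6 group means over all 18 libraries, 12 residual degrees of freedom) tested 12 comparisons, with Benjamini-Hochberg adjustment over 15329 genes. SE is the fold change divided by the root of F. The fit was tested on simulated data. Alternatives used DESeq2 1.42.0, limma 3.58.1 (voom, sample weights, log2 of TPM plus 1 or plus 0.1), another scaling, no filter, a replicate block and each library left out. An exact permutation test of 3 against 3 cannot go below 0.1, so none was run. Libraries of a group differed beyond sampling noise.

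Same-numbered WT peri-infarct and contralateral libraries deviated together (correlations 0.398, 0.436 and 0.386), read from the data, not the labels; no other pair of groups within a genotype did so throughout.

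Members, gene lists and tests were chosen with earlier results of these data known. Values in each library are given for Mki67, for the member of each of 10 role classes with the highest mean TPM, and for members called in a genotype comparison by either fit; other members are named where their fold change is the largest or smallest of their class or comparison. Other cell cycle genes are named for the highest TPM of their list, as called G1 cyclins and Cdk inhibitors, or, chosen after their values were seen, where few passed.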

Additional observations from a re-analysis of the deposited data

Results flagged for a closer look

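Mad2l1 stood out because its genotype difference pointed opposite ways in 2 regions with no overlap of libraries in either. KO libraries had 21.13 to 23.62 TPM in core, against 23.97 to 48.31 TPM in WT core, and 12.91 to 13.6 TPM in contralateral tissue, against 11.46 to 12.32 TPM in WT contralateral tissue. The KO minus WT difference in core response was -1.11 on the log2 scale (edgeR interaction, unadjusted p = 0.048, adjusted p = 0.98), so it did not pass the test, and it was -0.31 without WT core replicate 3.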

How the results depend on the processing

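WT core replicate 3 and WT peri-infarct replicate 1 stood apart, and both enter comparisons of other groups through the common spread. Of 43 members, the number risen in KO core over contralateral tissue ran from 38 to 43 when each library was left out in turn, and was 43 throughout in WT core. The same ranges were 0 to 36 in KO peri-infarct tissue, 0 to 43 in WT peri-infarct tissue, 0 to 43 for KO core over KO peri-infarct tissue and 0 to 43 for WT core over WT peri-infarct tissue, where 3 libraries a group leave little reserve. The count was 0 in WT peri-infarct tissue without any 1 WT contralateral library or without WT peri-infarct replicate 1 or 3, and 0 in KO peri-infarct tissue without any 1 KO contralateral library. KO against WT gave 0 to 8 for the mean over regions and 0 in each region and response. The 86 other genes gave 52 to 74 in KO core and 70 to 75 in WT core. Shares of all genes over these left-out fits are not given here.

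By limma-voom 3 members rose in WT peri-infarct tissue, 2 in KO peri-infarct tissue and 0 in WT core over WT peri-infarct tissue. In fits of only the groups compared, 0 rose in WT core over contralateral tissue (also 0 of the 86 other genes) and 0 over WT peri-infarct tissue, against 36 in KO peri-infarct tissue and 43 in KO core over KO peri-infarct tissue. KO peri-infarct tissue gave 40 with sample weights, 32 with log2(TPM + 0.1) and 39 without both libraries. KO core over KO peri-infarct tissue gave 21 by DESeq2, 43 with sample weights, 31 with log2(TPM + 1), 28 with log2(TPM + 0.1) and 43 without both libraries, and WT core over WT peri-infarct tissue gave 23 with log2(TPM + 0.1). KO against WT over regions gave 2 by DESeq2, 9 with sample weights (Mcm5 added) and 8 without both libraries. With the replicate block, WT core over WT peri-infarct tissue gave 0 members, WT peri-infarct over contralateral tissue 24 and KO peri-infarct over contralateral tissue 18. Mad2l1 in KO peri-infarct tissue, 0.002 with all libraries, was -0.042 with other size factors, -0.071 with no filter, -0.043 by DESeq2, -0.012 by limma-voom, -0.031 and -0.033 on the TPM scales, -0.047 with only the groups compared, -0.005 with the replicate block and -0.069 without both libraries. Leaving out single libraries gave -0.079 to 0.137 for it. Fits of only the groups compared were not run for the mean over regions, which uses all groups. Shares of all genes called in the fits of this paragraph are not given here, so its counts do not set the members apart from other genes. The cause of these changes was not tested.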
